A study of Mus musculus with 65 samples.

Results

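Cas9 editing of the Tfam gene in mouse hepatocytes was measured with a single guide RNA, Tfam-sg1, and with a pair of guide RNAs, Tfam-sg2-3, whose cuts lie on 1 amplicon. The 4 libraries whose titles name a Tfam cut site were taken, of 65 libraries in the series. The KO libraries come from livers of mice injected behind the eye with adeno-associated virus (AAV) carrying sgRNAs, labelled 2 wpi, read here as weeks after injection. The EV libraries cover the same cut sites, also at 2 wpi, after AAV with an empty sgRNA. All 4 are genomic DNA of hepatocytes from Rosa-LSL-Cas9-EGFP mice, so EV animals carry the Cas9 cassette as well. LSL is a stop cassette that Cre recombinase removes, and the labels used here name no source of Cre. Each group holds 1 library at each site, so there are no replicates, and the tests below compare reads of 2 libraries, not animals. The treatment label of the KO Tfam-sg2-3 library names Tfam-sg2 alone, while its title names both guides. The labels do not give the guide sequences, which guide makes which cut, or which guides 1 virus carried.

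Tfam, mitochondrial transcription factor A, is a nuclear gene whose protein binds and packages mitochondrial DNA and is needed for its transcription and maintenance. Cas9 makes a double-strand break at the place its guide RNA sets, and end joining in the cell closes it, either exactly or with bases inserted or lost. When a pair of guides cuts the same molecule, the segment between the cuts can be lost and the outer ends joined, which is called excision. Breaks closed separately, at 1 of the cuts or at both, instead leave the segment in place. Tfam lies on chromosome 10 at positions 71225468 to 71238328 of GRCm38.p6, the assembly also called mm10. No amplicon or guide sequence was used here, so the cuts are not placed in exons or introns.

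The 6 deposited tables of these libraries hold 1 line per read, 53565 reads in the 4 libraries on their full templates. The KO libraries held 10996 reads at Tfam-sg1 and 16335 at Tfam-sg2-3, against 6997 and 19237 in EV. A count of 0 allows a share of up to 3 reads of the total, which is 0.0273% in KO and 0.0429% in EV at Tfam-sg1. At Tfam-sg2-3 that limit is 0.0184% in KO and 0.0156% in EV. Intervals are exact (Clopper-Pearson) 95% intervals and cover counting error only, since several PCR reads can stem from the same molecule when no molecular identifier is used. Each line gives the last template base kept before a junction and the place where the match resumes after it. A net length is the bases lost minus the bases inserted, and an indel read is one whose net length is not 0. At Tfam-sg1 the cut lies after template base 245. At Tfam-sg2-3 the junctions all span template base 211, called the first cut here. The second cut, after base 264, was placed from the second table of each sample, whose template is 53 bp shorter.

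At the single cut, 1 kind of repair product made up most of the edited reads, an insertion of 1 bp. Indel reads were 25.6% of the KO Tfam-sg1 library (2811 reads, interval 24.8 to 26.4%) and 0.0572% of the EV library (4 reads, interval 0.0156 to 0.146%). The difference was 25.5 points (Newcombe 95% interval 24.7 to 26.3) and passed the two-sided Fisher's exact test after Benjamini-Hochberg adjustment over 21 sites. Counting 1 bp indels as unedited left a difference of 1.54 points. The call alone does not set Tfam apart, since 100% of the 21 sites in the series passed it.

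The 1 bp insertion placed exactly at the cut accounted for 2530 KO reads, 23.0% of the library (22.2 to 23.8%). The next allele, a 1 bp deletion at a base shared by both ends of the junction, had 86 reads or 0.782%. A 2 bp insertion had 29 reads, 0.264% of the library. The 3 other alleles above 0.1% of the library were small as well. One lost 5 bp before the cut and gained 1 bp (21 reads, 0.191%), one lost 2 bp before it and gained 1 bp (15 reads, 0.136%), and one lost 2 bp after it (15 reads, 0.136%). All 4 indel reads of the EV library carried the same 1 bp insertion at the cut that led in KO.

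Of the 2811 KO indel reads at Tfam-sg1, 90.3% had a net insertion of 1 bp (2539 reads, 89.2 to 91.4%). The 25 sgRNA libraries at 2 weeks ran from 4.57%, in KO Tfam-sg2-3, to 90.3% on this measure, with a median of 48.0%. The next lowest was 10.1%, in a Lats1-sg2 library, and Tfam-sg1 stood at the top of the range. Insertions of any length made up 92.7% of its indel reads and deletions 7.33%. Deletions stayed short, with 177 reads losing 1 to 9 bp, 15 losing 10 to 19 bp and 14 losing 20 bp or more, the longest 71 bp. Insertions of 20 bp or more were in 34 reads (1.21%), the longest 74 bp, against 0.498% for deletions of that size. Of the 103 reads with a net deletion of 2 bp or more, 7 had an overlap of at least 2 bp between the joined ends, the trace called microhomology.

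**Figure D1:**
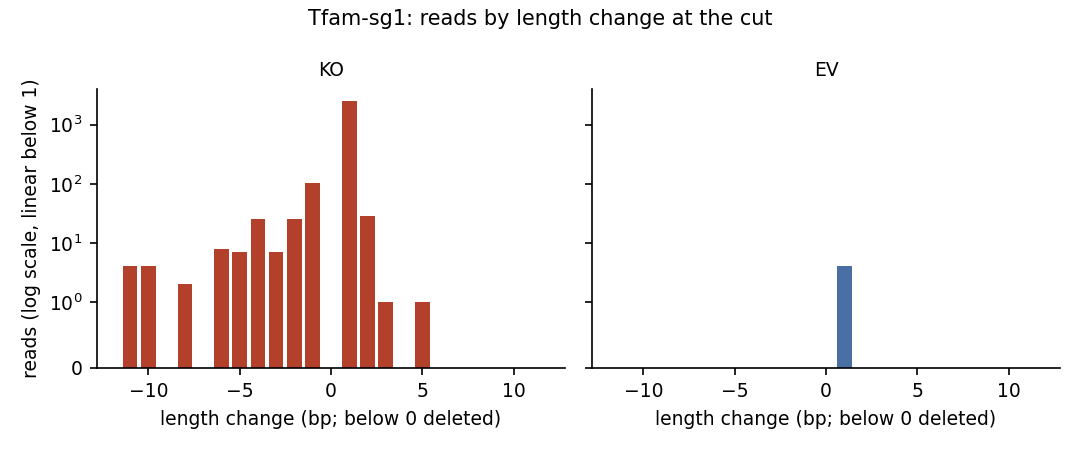
Reads of the KO (left) and EV (right) libraries at Tfam-sg1 by length change at the cut in bp, on a log count axis that is linear below 1 read; unedited reads and changes over 12 bp are not drawn. The 1 bp insertion stands at 2539 reads in KO and 4 in EV, and the 1 bp deletion at 103 reads in KO.

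The Tfam-sg2-3 amplicon looked different, with the segment between the cuts lost in most KO reads. Indel reads made up 97.2% of the KO library (15882 reads, 97.0 to 97.5%) and 0.120% of the EV library (23 reads, 0.0758 to 0.179%), a difference of 97.1 points (96.8 to 97.4). Excision, taken as a net deletion of 50 to 60 bp, was found in 14611 KO reads, 89.4% of the library (89.0 to 89.9%). It was found in 20 EV reads, 0.104% (0.0635 to 0.161%). The difference in excision share was 89.3 points (88.9 to 89.8) and passed the two-sided Fisher's exact test, adjusted over 5 tests. Few reads lay close to the limits of that window, with 0 KO reads at a net loss of 49 bp, 12 at 50 bp, 18 at 60 bp and 12 at 61 bp.

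Deletions of this size were rare elsewhere in the series. Deletions of 20 bp or more were in 91.1% of KO Tfam-sg2-3 reads, against 0.00481 to 3.36% (median 0.935%) of reads in the other 24 sgRNA libraries at 2 weeks. The smallest of these differences was 87.7 points, and 100% of the 24 passed Fisher's exact test. None of the other amplicons had a pair of cuts described in its label.

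Reads outside that window were sorted by where they changed. A net indel at the first cut with the second cut not reached was in 1133 KO reads, 6.94% of the library (6.55 to 7.34%), against 3 EV reads or 0.0156%. By the read-end measure described further on, 43 of the 1133 KO reads, 0.263% of the library, had changed at the first cut only. That count rests on which read end is taken as unchanged. The difference in the share with an indel at the first cut was 6.92 points (6.54 to 7.32) and passed Fisher's exact test. Another 138 KO reads, 0.845%, had a net length outside the window and a junction that ended at most 3 bp before the second cut or past it. In EV 0 reads did. Of those 138 reads, 77 carried inserted bases. In 29 of the KO reads, 0.178% of the library, 36 to 69 unmatched bases stood in place of the template stretch. Their sequence was not examined, so whether they differ from that stretch was not tested.

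**Figure D2:**
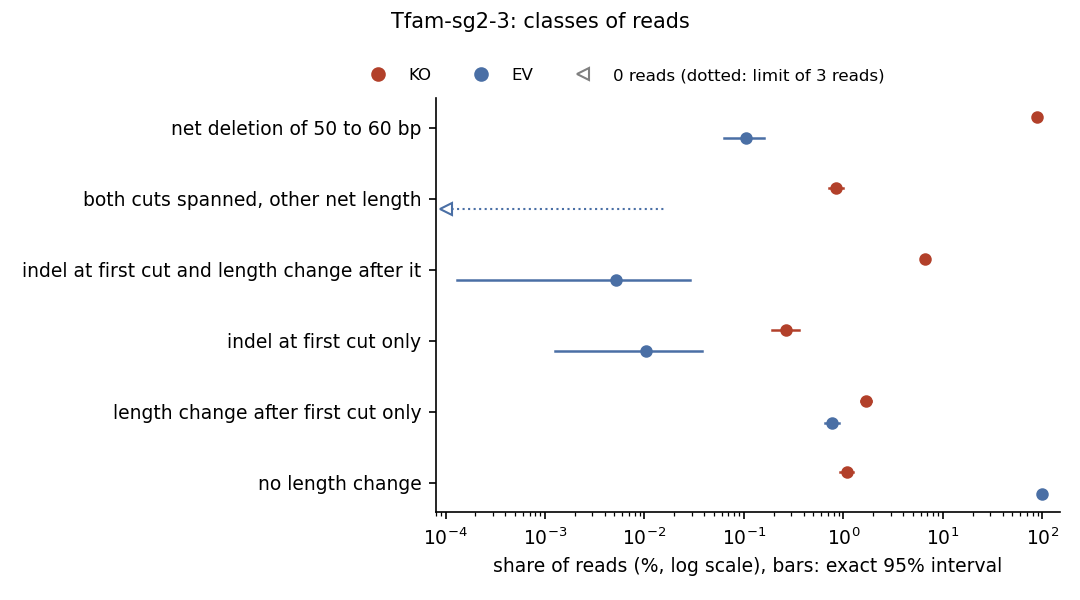
Share of reads in 6 classes at Tfam-sg2-3 on a log axis in percent, KO above EV within each class, with exact 95% intervals as bars; an open triangle marks 0 reads, with the limit of 3 reads of the total as a dotted line. KO reads lie mostly in the class of 50 to 60 bp deletions (89.4%), EV reads in the class with no length change (99.1%).

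The joined ends of the excision reads were mostly free of extra loss. Of the 14611 KO excision reads, 8313 (56.9%, 56.1 to 57.7%) joined the first cut to the second with nothing else lost or inserted, a clean loss of 53 bp. Another 5327 reads (36.5%) lost 1 base more, past the second cut, for 54 bp. These 2 junctions held 93.4% of the excision reads, and the leading 12 of 48 distinct junctions held 98.4%. The same 1 bp loss on the other side, before the first cut, was in 226 reads, or 1.55%. With the second cut placed after base 264, a single extra base was thus lost past it far more often than before the first. That place comes from the shorter template, not from a guide sequence. Whether the break itself lay there was not tested.

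The remaining named junctions were minor. A loss of 56 bp ended 2 bases past the second cut with 1 bp of overlap between the ends and had 217 reads. A junction with 1 inserted base, net 52 bp, had 94 reads. A 55 bp net loss that began 2 bases before the first cut and resumed 2 bases before the second, with 2 bp of overlap, had 55 reads. The other 6 junctions of the leading 12 had 18 to 30 reads each, and all but 1 of them extended past the second cut.

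By edge, 97.0% of KO excision reads kept every base up to the first cut, and 59.7% resumed exactly at the second cut. The match resumed 1 base past the second cut in 36.9%, 2 or more bases past it in 2.55%, and before it in 0.849%. On the other side, 1 base was lost before the first cut in 1.86% and 2 or more in 1.18%. Inserted bases were in 249 reads (1.70%), of which 159 had 1 base, 80 had 2 to 4 and 10 had 5 or more. The ends overlapped by at least 1 bp in 325 reads (2.22%) and by at least 2 bp in 73 (0.500%). The plot of junction edges shows the same asymmetry around the cuts as placed here, with reads spread along the side of the second cut.

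**Figure D3:**
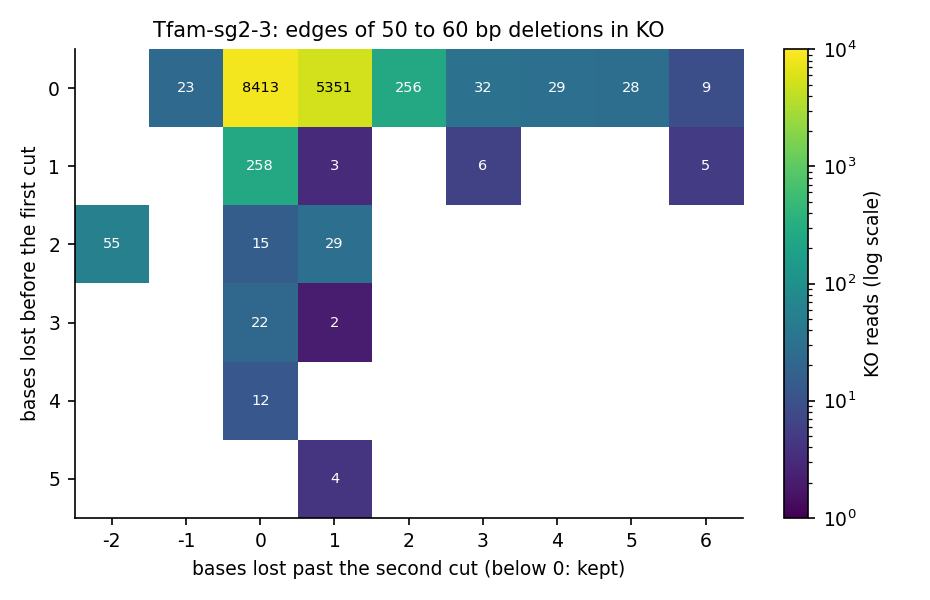
KO reads with a deletion of 50 to 60 bp at Tfam-sg2-3 by bases lost before the first cut (vertical axis) and past the second cut (horizontal axis, below 0 where bases before that cut were kept), with read counts in the cells and colour on a log scale; edges beyond the axes are not drawn. The cells for no loss on either side (8413 reads) and 1 base past the second cut (5351 reads) hold most of the reads, inserted bases included.

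The 20 EV excision reads carried 3 junctions, each also among the leading 12 in KO. They were the clean 53 bp loss in 11 reads, the 54 bp loss past the second cut in 8 and the 55 bp loss with 2 bp of overlap in 1. The share of clean 53 bp junctions was 56.9% in KO and 55% in EV (31.5 to 76.9%), a difference of 1.90 points (-17.3 to 22.7) that missed the threshold (two-sided Fisher's exact test, adjusted p = 1). With 20 EV reads that interval leaves room for a large difference either way. All 20 EV reads ended at template base 404, the usual end of EV reads, while KO reads usually ended at base 403. Only 15 of the 14611 KO excision reads ended at base 404.

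The second table of each sample lines reads up with the template that lacks the 53 bp. Of the KO reads, 14876 (91.1%) were in it, and 14605 of these were excision reads by the full template. The column named only_tails marked 14351 KO reads, all of them excision reads, and 20 EV reads, all of the EV excision reads. Edges were the same on both templates in 99.2% of the shared KO excision reads and moved in 118 reads (0.808%). Among those, 54 reads of the 55 bp loss with 2 bp of overlap became a clean 2 bp loss on the shorter template. Overlaps of at least 2 bp were in 67 of the 14605 shared KO excision reads on the full template and in 0 of them on the shorter one, so that class depended on the template. The count of clean 53 bp junctions was 8313 on both. Among the 170 EV reads on the shorter template, 149 had a net insertion of 53 bp there, the segment still being in place.

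The deposited junction spans the first cut, so a change at the second cut alone counts as no net indel. Where a read ends on the template holds that information, because 99.2% of EV reads with no net indel ended at a single template base. The distance of each read's end from its library's usual end was taken as the length gained or lost after the junction, a measure chosen after the data were seen. It was 0 for 99.2% of the KO excision reads, of which all but 28 had a junction that reached the second cut.

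Among KO reads that did not reach the second cut and had no net indel at the first cut, 277 of 453 (61.1%, 56.5 to 65.7%) had changed length after the junction. In EV 148 of 19214 such reads (0.770%, 0.652 to 0.904%) had done so. The difference was 60.4 points (55.8 to 64.8) and passed Fisher's exact test, and it was 12.5 points with only changes of 2 bp or more counted. In the other 64 libraries of the series the share of reads with no net indel whose end was shifted ran from 0 to 4.66%, with a median of 0.645%. Of the 453 KO reads, 195 were 1 bp longer (interval of the share 38.4 to 47.7%) and 176 (38.9%) were unchanged.

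**Figure D4:**
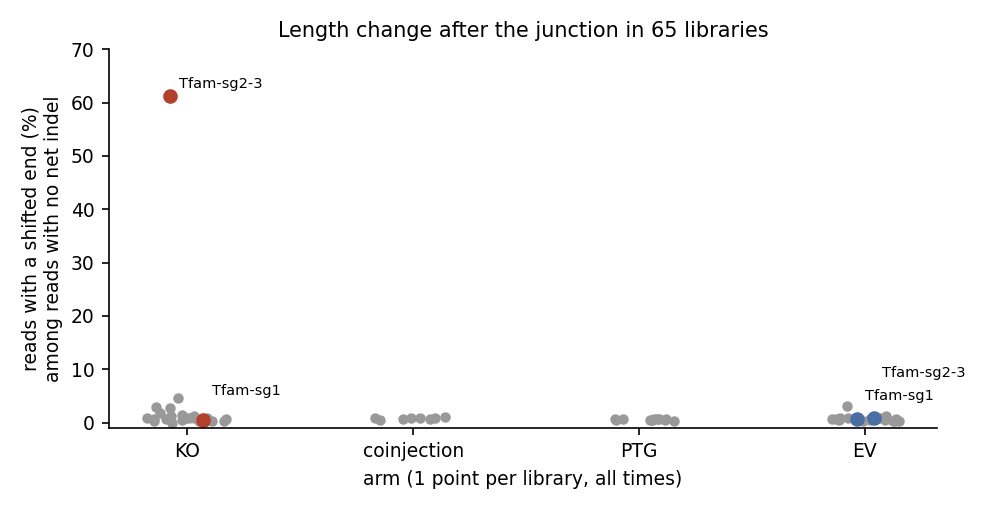
Share of reads with no net indel whose end was shifted from the library's usual end, in percent, 1 point per library for the 65 libraries, with Tfam libraries in colour; points are spread sideways within an arm for view. KO Tfam-sg2-3 stands at 61.1%, and the other 64 libraries lie at or below 4.66%.

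With base 403, the usual KO read end, taken as unchanged, most KO reads with an indel at the first cut had also changed after it. Of the 1133, 1090 (96.2%, 94.9 to 97.2%) had changed length after the junction, and 43 (3.80%) had not. The share was 35.1 points higher (30.5 to 39.7) than in KO reads with no net indel at the first cut and passed Fisher's exact test, adjusted over 3 tests that were added after the data were seen. With only changes of 2 bp or more counted, that difference was 7.06 points. A gain of 1 bp after the junction was in 762 of the 1133 reads (67.3%) and in 195 of the 453, a difference of 24.2 points (18.8 to 29.4) that also passed. Reads with a 1 bp insertion exactly at the first cut, 4.25% of the library (695 reads), had changed after it in 678 cases. Reads with a net deletion at the first cut had done so in 317 of 343 cases.

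The reading of a 1 bp gain rests on which end is taken as usual. KO reads ended 1 bp earlier and started 1 bp later than EV reads at Tfam-sg2-3, and the same held for the usual start and end in all of the other 24 sgRNA libraries at 2 weeks against the EV library of their site. With base 404 taken as the unchanged end in KO too, the share changed was 32.7% of KO reads with an indel at the first cut and 57.0% of those without, which turned the difference to -24.2 points. The KO reads that ended at 404 started as other KO reads did, in 194 of 195 reads with no net indel at the first cut and in 760 of 762 with one. Of the KO excision reads, 99.2% ended at 403.

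Over all 1586 KO reads that did not reach the second cut, of which 176 resumed their match 5 or more bases past the first cut, 957 (60.3%) were 1 bp longer after the junction, 127 (8.01%) were 1 bp shorter, 122 (7.69%) were 2 bp shorter, 68 (4.29%) were 3 bp shorter and 88 (5.55%) were shorter by 4 bp or more. Only 219 (13.8%) had not changed there with base 403 as the usual end. With base 404 taken instead, the 957 reads would count as unchanged. The counts that follow also take base 403 as unchanged in KO. A change at the first cut, after it or at both was in 1410 reads, of which 481 (34.1%) were 1 bp longer at both places. In 122 of the 1410 (8.65%) the changes at the first cut and after it cancelled to a summed length of 0. With both places counted, 98.9% of KO reads (16159 reads, 98.8 to 99.1%) and 0.889% of EV reads had some length change.

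**Figure D5:**
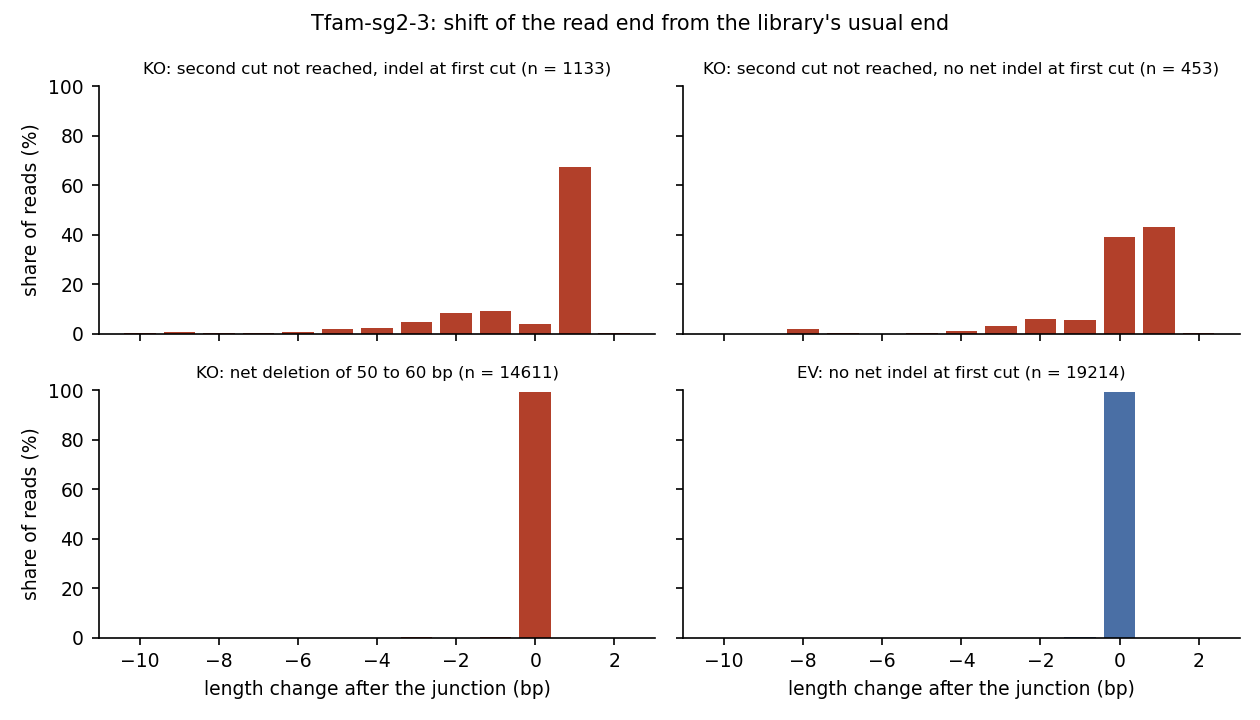
Share of reads in percent by length change after the junction in bp, from the distance of the read's end to its library's usual end, in 3 KO classes and in EV reads with no net indel at the first cut (lower right). KO reads that did not reach the second cut peak at 1 bp longer (762 of 1133 reads with an indel at the first cut, 195 of 453 without), while KO excision reads (99.2%) and EV reads peak at 0.

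The net lengths at the first cut of Tfam-sg2-3, in reads that did not reach the second cut, differed from those at Tfam-sg1. With base 403 as the unchanged read end, most of these Tfam-sg2-3 reads had also changed after the junction, against 32.7% with base 404. The usual end was also 1 bp earlier than in EV in all of the other 24 sgRNA libraries at 2 weeks. At Tfam-sg2-3, 99.2% of KO excision reads ended at base 403. Whether these Tfam-sg2-3 reads are products of a single cut was not tested, and the comparison takes only their length at the first cut. In KO, 64.1% of them (726 of 1133, 61.2 to 66.9%) had a net insertion of 1 bp there, against 90.3% of indel reads at Tfam-sg1. The difference of -26.2 points (-29.3 to -23.3) passed Fisher's exact test (adjusted p = 3.65e-79). It rested on the leading allele of each site, since without that allele the shares were 7.08% at Tfam-sg2-3 and 3.20% at Tfam-sg1 and the difference turned to 3.87 points. Deletions of 20 bp or more were in 157 of the 1133 reads (13.9%) at Tfam-sg2-3 and in 14 of 2811 (0.498%) at Tfam-sg1. Deletions of 1 to 9 bp were in 13.9% at Tfam-sg2-3 and in 6.30% at Tfam-sg1. Different guides cut at the 2 amplicons, so the pairing of cuts and the guide cannot be told apart.

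The net length sets whether a reading frame could be kept, with no statement here on whether the cuts lie in coding sequence. A net length that is not a multiple of 3 was in 63.2% of KO Tfam-sg2-3 indel reads (62.5 to 64.0%), against 99.1% at KO Tfam-sg1 (98.6 to 99.4%). The difference of -35.8 points (-36.6 to -35.0) passed Fisher's exact test. It was -8.25 points with Tfam-sg2-3 limited to the 1133 reads that had an indel at the first cut and did not reach the second, by their length at the first cut alone, and -67.9 points without the leading allele of each site. With each distinct allele counted once, the shares were 64.8% of 182 alleles at Tfam-sg2-3 and 78.2% of 55 at Tfam-sg1, and the call was lost (Fisher's exact test, adjusted p = 0.0886). Within KO Tfam-sg2-3 the share was 61.1% of excision reads and, 90.8% of the 1133 reads with an indel at the first cut and the second not reached. The 53 bp loss is not a multiple of 3 and the 54 bp loss is, so 5687 excision reads, 38.9%, had a net length that is. With the lengths at the first cut and after it summed, 80.1% of the 1410 KO reads changed at either place had a length that is not a multiple of 3. Those 1410 include 122 reads whose lengths cancel to 0, which count as multiples of 3. The other shares leave out reads with a net length of 0, so this share is not on the same base.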

How the data were processed

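Per the labels' protocols, hepatocyte DNA was amplified around each cut site and made into libraries with an NEBNext kit. Tools listed in the submitters' processing notes, with no role stated, are Bowtie2, bcl2fastq, deepTools and R 4.2.1, and the build listed is mm10. Which tool set the junctions is not given in the sources used. The deposited values are positions and lengths in bp per read, per the file headers, with no normalization by the authors that these state. In the Tfam tables, net length equalled template gap minus read gap.

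Reads were grouped by the labels and classified with Python 3.11.15, pandas 2.3.3, scipy 1.17.1 and statsmodels 0.14.6. The second cut counted as reached within 3 bp. Two-sided Fisher's exact tests used Benjamini-Hochberg adjustment at 0.05. Classification was run on simulated reads built from the same class rules and the same usual read end. That run checks the code, not the choice of cuts or read end. Named alleles were the 8 leading alleles of each KO library and 12 leading excision junctions, each with at least 0.1% of reads. Members, alleles and tests were chosen with earlier results of these data known. Alternatives changed allele minimums, the excision window, cut edges, the template, leading alleles and the usual read end.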

Additional observations from a re-analysis of the deposited data

Results flagged for a closer look

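The difference in indel share between KO and EV was 97.1 points at Tfam-sg2-3 and 25.5 points at Tfam-sg1, and the gap between these differences was 71.6 points (95% interval 70.7 to 72.4, counting error only). Both sites were compared within 1 KO and 1 EV library each, so the gap has no check against the spread between animals. Among the 17 KO libraries at 2 weeks, Tfam-sg1 had the lowest indel share. At the KO sites other than Tfam, the difference from EV ran from 43.3 points at Polg-sg2 to 96.3 points at Fah-sg1. Different guides cut at the Tfam amplicons, so the pairing of cuts and the guide cannot be told apart. Indel reads were 97.2% of KO and 0.120% of EV reads at Tfam-sg2-3, and 25.6% of KO and 0.0572% of EV reads at Tfam-sg1.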

How the results depend on the processing

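Of 59 alternative values for 10 results, 53 kept the direction and the side of the threshold, with ranges of 92.3 to 97.3 points for the Tfam-sg2-3 indel share, 85.2 to 91.2 points for excision and 5.78 to 7.04 points for indels at the first cut with the second not reached, KO minus EV each. The share of clean 53 bp junctions, KO minus EV, became -0.984 points without alleles of 1 read and -42.6 points without alleles of under 10 reads, where EV kept 11 reads of 1 allele and the difference passed Fisher's exact test (adjusted p = 0.00354). It became 49.7 points, a pass in the opposite direction (exact test, adjusted p = 3.39e-43), when reads with no indel on the shorter template were used, where 150 of the 170 EV reads had no net indel on the full template. The 1 bp insertion share, KO Tfam-sg2-3 minus KO Tfam-sg1, became 3.87 points without the leading allele of each site. The share of lengths that are not a multiple of 3 became -13.3 points with each distinct allele counted once, no longer past the threshold. The share changed after the junction, with an indel at the first cut minus without, became -24.2 points with the EV read end as unchanged, an alternative chosen after the data were seen. The cause was not tested where not stated. No paired analysis was possible because each group holds 1 library. The EV junction shares rest on 20 excision reads.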
